A study of Mus musculus with 4 samples.

Results

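Transcripts of B cells and plasma cells were followed in RNA sequenced from smooth muscle cells (SMCs) of the mouse lung, with and without *Tet3*. The 9 genes examined were *Cd79a*, *Cd79b*, *Ms4a1*, *Cd22*, *Cr2*, *Pax5*, *Jchain*, *Mzb1* and *Tnfrsf17*, chosen by symbol as genes whose expression marks the B lineage. They are 9 of 21462 genes in the deposited table, and 8 of them had a mean of at least 10 normalized counts over all libraries and entered the test, among 16659 genes tested. *Mzb1* did not reach that mean.

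The data comprise 4 libraries of total RNA from C57BL/6 lungs, 2 from control mice and 2 from Tet3 mutant mice. In the mutants an α-SMA promoter drove a tamoxifen-inducible Cre recombinase, a pair of floxed *Tet3* alleles was recombined in α-SMA-expressing cells of young adult animals, and a tdTomato reporter marked those cells. Controls had intact *Tet3* and also gave tdTomato-positive cells. Lungs were perfused to wash out blood, cells bearing CD45 or Ter-119 were removed with magnetic beads, and tdTomato-positive, DAPI-negative cells were sorted, so the preparation was meant to hold few blood cells. Deletion by this Cre reaches only cells in which the α-SMA promoter is active. The labels give strain, tissue, cell type and genotype, and no sex, litter or batch; the study's methods describe independent animals.

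B cells recognize antigen through a membrane antibody that signals through the CD79A and CD79B chains, and surface proteins such as CD22, CD20 and CD21 tune that signal. PAX5 is the transcription factor that holds cells in the B lineage. When a B cell becomes a plasma cell it loses most of these proteins and makes secreted antibody instead, with the J chain joining the units of IgA and IgM, MZB1 assisting antibody folding in the endoplasmic reticulum, and BCMA, the product of *Tnfrsf17*, receiving survival signals. In the lung, IgA-producing plasma cells lie along the airways and around vessels, close to smooth muscle.

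TET3 oxidizes 5-methylcytosine at CpG dinucleotides. In contractile genes of SMCs, the paper reports that loss of *Tet3* lowered the oxidized base within genes and not at promoters. The CpG content of promoters is therefore shown as a description only, for 3 members picked after their values were seen. These are *Jchain*, the tested member whose groups did not overlap, and *Pax5* and *Cr2*, which varied widely between libraries of a group. The sequences are the 250 bases before the RefSeq gene start on GRCm38.p6, 5′ to 3′ on the strand of the gene, with CpG dinucleotides in capitals. They cover chr5:88527898-88528147 (minus strand) for *Jchain*, chr4:44710695-44710944 (minus strand) for *Pax5* and chr1:195176720-195176969 (minus strand) for *Cr2*, all upstream of the gene as the deposited table bounds it.
Jchain: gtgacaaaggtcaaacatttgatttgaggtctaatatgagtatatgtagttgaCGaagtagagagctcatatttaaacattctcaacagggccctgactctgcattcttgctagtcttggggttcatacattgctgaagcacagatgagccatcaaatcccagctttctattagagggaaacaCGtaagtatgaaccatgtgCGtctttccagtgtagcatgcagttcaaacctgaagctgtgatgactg
Pax5: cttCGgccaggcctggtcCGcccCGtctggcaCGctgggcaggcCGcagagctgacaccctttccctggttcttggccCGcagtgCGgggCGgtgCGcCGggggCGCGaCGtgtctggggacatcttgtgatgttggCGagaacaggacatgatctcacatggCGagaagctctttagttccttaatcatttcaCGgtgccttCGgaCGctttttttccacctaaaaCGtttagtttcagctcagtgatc
Cr2: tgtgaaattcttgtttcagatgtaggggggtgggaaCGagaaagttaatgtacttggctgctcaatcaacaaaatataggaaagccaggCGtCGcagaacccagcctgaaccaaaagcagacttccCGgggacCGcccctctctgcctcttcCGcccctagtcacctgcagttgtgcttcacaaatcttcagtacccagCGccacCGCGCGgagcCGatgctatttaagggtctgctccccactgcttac

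The *Jchain* window held 3 CpG dinucleotides and had a GC content of 42.0%. The *Pax5* window held 19 CpG dinucleotides, more than 80.1% of 32536 distinct promoter windows of the same length, and the *Cr2* window held 11. The median over all windows was 6. Windows were found for 6 of the 9 members, and those of *Cd79a*, *Tnfrsf17* and *Cd22* held 6, 5 and 4 CpG dinucleotides. The octamer ATGCAAAT, a promoter motif read by POU factors in B cells, was searched on both strands and was present in 0 of the 6 windows and in 1.62% of all windows. DNA methylation was not analysed here.

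Values are normalized counts, that is, reads per gene that the authors scaled between libraries and rounded to whole numbers. Reads assigned to genes were estimated at between 6.32 M and 7.56 M in a library. Each fold change sets mutant against control on the log2(value + 1) scale, with moderated standard errors from limma, a linear model that borrows the spread across genes, and adjusted p-values are Benjamini-Hochberg values over all 16659 genes. *Tet3* itself had 1847 and 1926 normalized counts in the 2 controls against 1534 and 1444 in the mutants, with replicate 1 given before replicate 2 here and throughout (limma adjusted p = 0.681). Control replicate 2 stood apart from the other libraries in ways the labels do not give: it had 2 normalized counts of the X-linked *Xist* against 5214 to 6781 elsewhere, and 774 of the Y-linked *Ddx3y* against 0 in each other library. That is the pattern of a male in control replicate 2 and of females elsewhere, so sex was not balanced between the groups. The part of sex, or of anything else that set this library apart, in the results was not tested. Results that rest on this library are given with and without it.

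**Figure D1:**
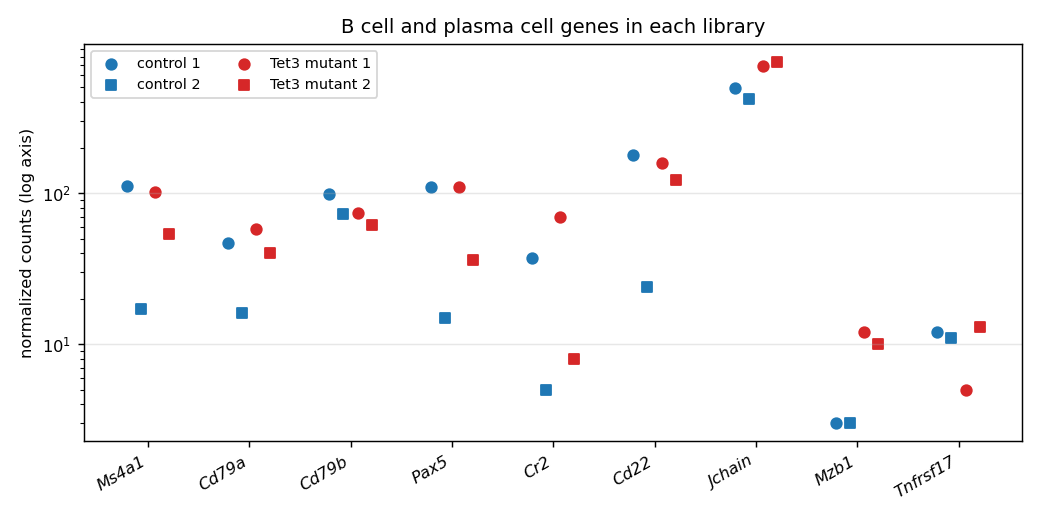
Normalized counts (log axis) of the 9 B cell and plasma cell genes in each library, with controls in blue, Tet3 mutants in red, circles for replicate 1 and squares for replicate 2. *Ms4a1*, *Cd79a*, *Pax5* and *Cd22* have their lowest value, 15 to 24, in control replicate 2, whereas for *Jchain* both mutants lie above both controls.

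No member passed the adjusted threshold of 0.05 in limma, 0 of 8 tested, as among all genes (0 of 16659, 0.0%). At an unadjusted p under 0.05, 1 of the 8 was higher in mutants (*Jchain*), where 3.83% of all genes were, and 0 of 8 were lower, where 2.85% were. Both mutants lay above both controls for 1 of 8 members, against 19.6% of all genes, and below both controls for 0 of 8, against 19.5%. The log2 fold change was above 0 for 6 members and below 0 for 2, with a median of 0.69 against -0.01 over all genes, and this median was -0.52 without control replicate 2, 1.77 without control replicate 1, and 0.23 and 1.11 without mutant replicates 1 and 2. Control replicate 2 had the lowest value of the libraries for 6 of 8 members, against 33.1% of all genes, and lay under 0.5 times each other library for 4 of 8, against 2.44% of all genes.

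The 2 signalling chains of the B cell receptor differed in how far their libraries spread. *Cd79a* (ENSMUSG00000003379, chromosome 7, 24897381 to 24902197) had 47 and 16 normalized counts in the 2 controls against 58 and 40 in the mutants. Control replicate 2 was the low library, and the groups overlapped. *Cd79b* (ENSMUSG00000040592, chromosome 11, 106311341 to 106314762) had 99 and 73 in the 2 controls against 74 and 62 in the mutants, so that its 4 libraries lay close together. The log2 fold change of *Cd79a* was 0.78 (standard error 0.58, limma adjusted p = 0.729), and it was 0.04 without control replicate 2. That of *Cd79b* was -0.32 (standard error 0.28, limma adjusted p = 0.757), and it stayed between -0.54 and -0.11 with any 1 library left out.

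Among the surface proteins, *Ms4a1* (ENSMUSG00000024673, chromosome 19, 11249675 to 11266241), which encodes CD20, had 112 and 17 normalized counts in the 2 controls against 101 and 54 in the mutants. Control replicate 1 and mutant replicate 1 were nearly alike, and control replicate 2 was far below both. *Cd22* (ENSMUSG00000030577, chromosome 7, 30865402 to 30880342), an inhibitory co-receptor of the B cell receptor, had 179 and 24 in the 2 controls against 158 and 123 in the mutants. Both mutants and control replicate 1 lay within 123 to 179, with control replicate 2 alone below. *Cr2* (ENSMUSG00000026616, chromosome 1, 195136811 to 195176716), which encodes the complement receptor CD21, had 37 and 5 in the 2 controls against 69 and 8 in the mutants. For this gene the log2 difference of replicate 2 from replicate 1 was of similar size in both groups, -2.66 in the controls and -2.96 in the mutants.

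Each of these 3 differences was smaller in size than the log2 difference between the 2 controls, which was -2.65 for *Ms4a1*, -2.85 for *Cd22* and -2.66 for *Cr2*. That of *Cd22* was larger than the log2 difference between the mutants, -0.36. The log2 fold change was 0.73 for *Ms4a1* (standard error 0.91, limma adjusted p = 0.835), 1.07 for *Cd22* (standard error 0.92, limma adjusted p = 0.757) and 0.73 for *Cr2* (standard error 1.31, limma adjusted p = 0.891). Each turned negative without control replicate 2, at -0.59, -0.36 and -0.60. *Cr2* also turned negative without mutant replicate 1, at -0.75. The squared difference of the 2 controls divided by their sum, which averages 1 where reads vary by counting error alone, was 70.0 for *Ms4a1*, 118 for *Cd22* and 24.4 for *Cr2*, and that of the 2 mutants was 14.3, 4.36 and 48.3. Libraries of both groups thus differed by more than counting, and for *Cr2* the mutants did so more than the controls.

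*Pax5* (ENSMUSG00000014030, chromosome 4, 44524757 to 44710487) followed the surface proteins, with 110 and 15 normalized counts in the 2 controls against 110 and 36 in the mutants. Both first replicates had 110, and both second replicates were lower. The log2 fold change was 0.60 (standard error 1.04, limma adjusted p = 0.887), was -0.79 without control replicate 2 and -0.19 without mutant replicate 1. Exons of *Pax5* share 125 and 636 bases with transcript models on the opposite strand, and exons of *Cd22* share 479 with another, so their values are uncertain to that extent, since it is not stated whether strand was used in counting.

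The 6 genes of mature B cells summed to 584 and 150 normalized counts in the 2 controls against 570 and 323 in the mutants. In each of the 6, replicate 2 was below replicate 1 in both groups, with a median log2 difference of -2.66 in the controls and -0.71 in the mutants. Over all genes these medians were 0.0 and 0.01, and the share of genes lower in replicate 2 of both groups was not computed. *Jchain* and *Tnfrsf17* did not share this, being higher in replicate 2 of the mutants. Without *Cd79b* the sums of the mature B cell genes were 485 and 77 in the 2 controls against 496 and 261 in the mutants. The ratio of *Ms4a1* to *Cd79b* was 1.13 and 0.233 in the 2 controls against 1.36 and 0.871 in the mutants, so the genes did not keep 1 proportion across libraries. In these bulk libraries fewer B cells and less RNA per B cell cannot be told apart.

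**Figure D2:**
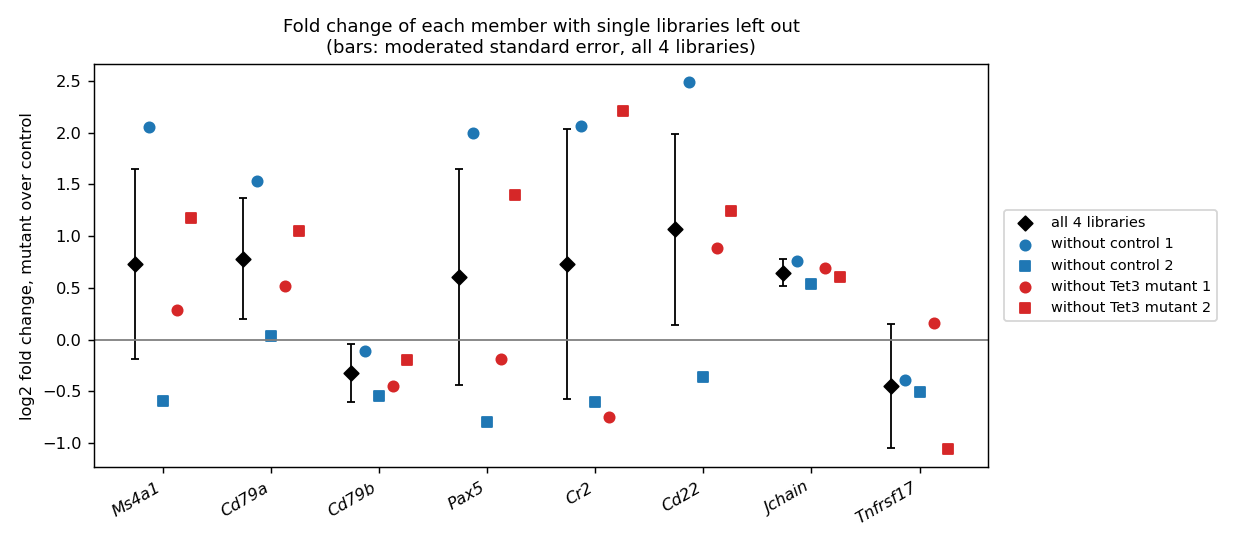
Log2 fold change, Tet3 mutant over control, of the 8 members tested, with all 4 libraries (black diamonds, bars giving the moderated standard error) and with each library left out (blue for a control left out, red for a mutant, circle for replicate 1 and square for replicate 2). The values for *Ms4a1*, *Pax5*, *Cr2*, *Cd22* and *Tnfrsf17* fall on both sides of 0, and those for *Jchain* stay between 0.54 and 0.76.

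For the plasma cell genes, control replicate 2 lay close to control replicate 1. *Jchain* (ENSMUSG00000067149, chromosome 5, 88519809 to 88527891) had 492 and 421 normalized counts in the 2 controls against 693 and 736 in the mutants. Both mutants were above both controls. The control mean was 456.5 ± 50.2 (SD, n = 2) and the mutant mean was 714.5 ± 30.4 (SD, n = 2), a ratio of 1.57. The log2 fold change was 0.65 (standard error 0.13), at a limma unadjusted p of 0.00417 and an adjusted p of 0.681, so it did not pass the threshold over all genes. It lay between 0.54 and 0.76 with any 1 library left out, and was 0.54 without control replicate 2. The squared difference over the sum was 5.52 between the controls and 1.29 between the mutants.

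*Mzb1* (ENSMUSG00000024353, chromosome 18, 35647267 to 35649367) had 3 and 3 normalized counts in the 2 controls against 12 and 10 in the mutants. The controls were at 3, a level that counting error alone does not separate from 0, and the mutants were above it. With no minimum on the mean, when 21462 genes were tested, the log2 fold change was 1.58 (standard error 0.48, limma unadjusted p = 0.0224, adjusted p = 0.718). This gene shares 695 exon bases with a gene model on the same strand, *SPATA24*, and the authors excluded reads that fell on several genes, so its level is uncertain.

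*Tnfrsf17* (ENSMUSG00000022496, chromosome 16, 11313812 to 11320074) had 12 and 11 normalized counts in the 2 controls against 5 and 13 in the mutants. Mutant replicate 1 was the low library and the other 3 were nearly equal. The log2 fold change was -0.45 (standard error 0.60, limma adjusted p = 0.848) and was 0.16 without mutant replicate 1. The 3 plasma cell genes summed to 507 and 435 in the 2 controls against 710 and 759 in the mutants, and most of each sum was *Jchain*. The ratio of *Jchain* to *Ms4a1* was 4.39 and 24.8 for the 2 controls against 6.86 and 13.6 for the mutants, with the highest ratio in the library lowest in *Ms4a1*.

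Levels were compared between members per kilobase of exon, as normalized counts per kb over the 4 libraries. *Jchain* was the highest, with a mean of 233 and a range of 167 to 292, which placed its mean above 95.2% of genes in the table. *Cd79b* came next with a mean of 53.8 and a range of 43.3 to 69.2, clear of *Cd79a* at 27.6, which reached at most 39.8. *Cd22*, *Tnfrsf17*, *Ms4a1* and *Pax5* followed with means of 24.0, 12.6, 11.5 and 7.65. The ranges of neighbours in this order overlapped from *Cd79a* down to *Cr2*, the lowest at 3.67 per kb, so their order is not set by these libraries.

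Further B cell markers were examined as a list of genes outside the members. Of 18 tested, 18 had a log2 fold change above 0, where 8145 of 16659 genes in all did, and 0 passed the adjusted threshold. This was not particular to B cells, since 10 of 10 T cell, 10 of 10 macrophage and 8 of 8 smooth muscle markers were also above 0. Alveolar type 2 markers had 0 of 6 above 0. Both mutants were above both controls for 6 of the 18, against 19.6% of all genes. The median of the 18 was 0.42, and it became 0.03 without control replicate 2 and 0.97 without control replicate 1. Control replicate 2 was the lowest library for 15 of the 18 and lay under 0.5 times each other library for 6. *Cxcr5*, the receptor that brings B cells into follicles, had 51 and 3 normalized counts in the 2 controls against 37 and 27 in the mutants.

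The most abundant genes of that list varied less between libraries. *Ebf1*, a B lineage transcription factor that stromal cells also express, had 332 and 407 normalized counts in the 2 controls against 492 and 314 in the mutants. *Bank1*, a B cell scaffold protein, had 184 and 115 in the 2 controls against 223 and 174 in the mutants, and *H2-Ob*, part of the H2-O antigen loading regulator, had 130 and 142 in the 2 controls against 174 and 188 in the mutants. Of these, *H2-Ob* alone had both mutants above both controls.

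Unadjusted p-values under 0.05 were found for 2 genes of the list. *Cd72*, a co-receptor of B cells that macrophages can also express, had 81 and 77 normalized counts in the 2 controls against 131 and 164 in the mutants (log2 fold change 0.88, standard error 0.23, limma unadjusted p = 0.0109). *Fcrla*, an Fc receptor-like protein of B cells, had 22 and 19 in the 2 controls against 47 and 45 in the mutants (log2 fold change 1.13, standard error 0.33, limma unadjusted p = 0.0184). Unlike *Ms4a1* or *Cd22*, neither had a drop in control replicate 2.

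B cell receptor signalling genes, which other leukocytes also use, had their 2 highest values in the mutants for 11 of 15 tested, against the 19.6% of all genes given above. Lists of other leukocytes had such shares too, with 6 of 7 pan-leukocyte genes and 8 of 10 macrophage markers. Neutrophil markers had 5 of 7 and T cell markers 5 of 10. Smooth muscle markers had 5 of 8, so the pattern was not particular to leukocytes. Fibroblast markers had 2 of 6, endothelial markers 1 of 6 and alveolar type 2 markers 0 of 6. Both mutants were below both controls for 1 neutrophil marker and for 0 genes of the B cell receptor, pan-leukocyte, macrophage and T cell lists. The median log2 fold change of the B cell receptor signalling genes was 0.32, and 0.25 without control replicate 2. Of these 15 genes, 14 were above 0 and 0 passed the adjusted threshold. *Vav1*, an exchange factor downstream of antigen receptors, had 416 and 352 normalized counts in the 2 controls against 538 and 532 in the mutants (limma unadjusted p = 0.0165). *Syk*, the kinase recruited to CD79, had 1131 and 788 in the 2 controls against 1229 and 1251 in the mutants, and *Inpp5d*, the phosphatase SHIP1, had 932 and 929 in the 2 controls against 1041 and 1287 in the mutants. *Cd81*, a widely expressed tetraspanin, had 1145 and 1107 in the 2 controls against 1174 and 1038 in the mutants.

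Other plasma cell genes had no common direction. Their median log2 fold change was 0.02 over 8 tested, with 5 above 0 and 0 past the adjusted threshold. *Xbp1*, the secretory transcription factor, had 1016 and 1062 normalized counts in the 2 controls against 1104 and 1033 in the mutants. *Sdc1*, which encodes CD138 and is also made by epithelium, had 850 and 1597 in the 2 controls against 465 and 799 in the mutants, and *Irf4* had 364 and 304 in the 2 controls against 371 and 449 in the mutants. *Slamf7*, a SLAM receptor of plasma cells and other leukocytes, had 183 and 328 in the 2 controls against 543 and 661 in the mutants (log2 fold change 1.29, standard error 0.30, limma unadjusted p = 0.00780).

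Antibody constant regions were examined beside *Jchain*. *Igha*, the heavy chain of IgA, had 601 and 646 normalized counts in the 2 controls against 836 and 824 in the mutants, and *Ighm*, that of IgM, had 858 and 433 in the 2 controls against 634 and 674 in the mutants. *Igkc*, the kappa light chain, had 301 and 306 in the 2 controls against 366 and 339 in the mutants. Of 11 constant region genes tested, 9 had a log2 fold change above 0 and 0 passed the adjusted threshold. The median was 0.41, and it was 0.26 without control replicate 2 and 0.79 without control replicate 1. Both mutants were above both controls for 6 of the 11, against 19.6% of all genes, and below both for 1, against 19.5%. At an unadjusted p under 0.05, *Igha*, *Iglc1*, *Ighg1* and *Ighg2c* were higher in mutants and *Ighg2b* was lower.

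Ligands and receptors of B cell survival and homing had a log2 fold change above 0 for 6 of 7 tested and of 0 for *Tnfsf13*, with a median of 0.53, and 0.18 without control replicate 2. *Tnfsf13b*, which encodes BAFF, had 857 and 540 normalized counts in the 2 controls against 1101 and 875 in the mutants. *Tnfrsf13b*, which encodes the BAFF and APRIL receptor TACI, had 134 and 107 in the 2 controls against 170 and 213 in the mutants (limma unadjusted p = 0.0311). *Cxcl13*, the chemokine ligand of CXCR5, had 163 and 210 in the 2 controls against 254 and 331 in the mutants (limma unadjusted p = 0.0316). None of the 7 passed the adjusted threshold.

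Genes of other B cell stages gave few values. Among 4 germinal centre genes tested the median log2 fold change was 0.13, and the most abundant were *Bcl6*, with 585 and 750 normalized counts in the 2 controls against 717 and 657 in the mutants, and *S1pr2*, with 689 and 467 in the 2 controls against 499 and 597 in the mutants. *Gcsam*, a germinal centre signalling protein, had 39 and 83 in the 2 controls against 117 and 109 in the mutants. *Dntt*, which acts in B and T cell precursors, was at 4 and 0 in the 2 controls against 1 and 4 in the mutants, and *Vpreb1*, *Igll1*, *Rag1* and *Rag2* were not analysed here.

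**Figure D3:**
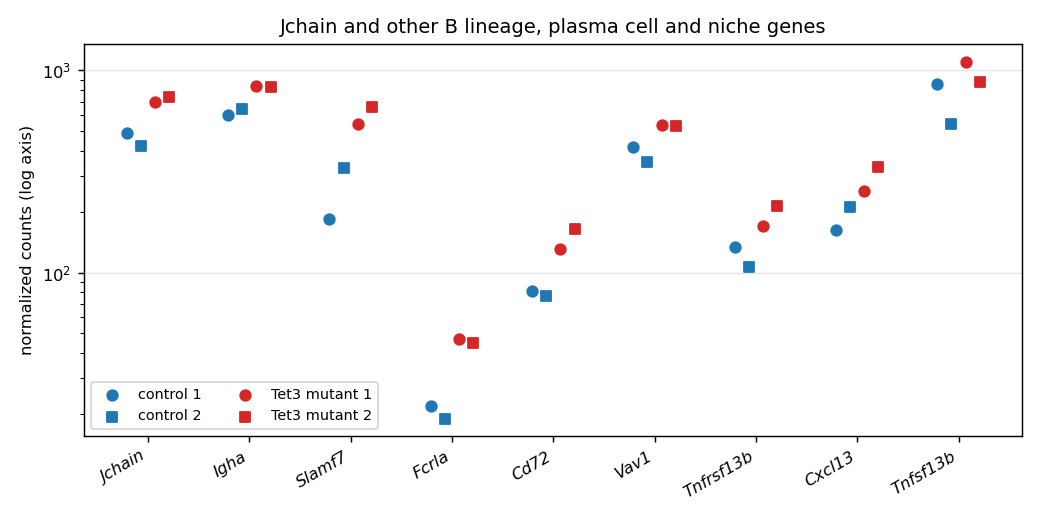
Normalized counts (log axis) of *Jchain* beside other B lineage, plasma cell and niche genes in each library, with controls in blue, Tet3 mutants in red, circles for replicate 1 and squares for replicate 2. All genes but *Tnfsf13b* were chosen after their values were seen, for an unadjusted p under 0.05 and higher values in mutants. That both mutants lie above both controls in those is in part a result of this choice. *Ighg2b*, under 0.05 but lower in mutants (324 and 318 in the 2 controls against 144 and 247 in the mutants), is not shown. The constant regions *Iglc1*, *Ighg1* and *Ighg2c*, under 0.05 and higher in mutants, are also left out.

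Markers of other cells were set beside these results. T cell markers were also low in control replicate 2: 10 of 10 tested lay under 0.5 times each other library in control replicate 2, and their sum was 878 and 238 normalized counts in the 2 controls against 935 and 956 in the mutants. Pan-leukocyte genes had a median log2 fold change of 0.40 over 7 tested, which was 0.29 without control replicate 2 and 0.72 without control replicate 1. *Ptprc*, which encodes CD45, had 2136 and 1364 normalized counts in the 2 controls against 2674 and 1885 in the mutants, so leukocyte transcripts were measured in each library although CD45-bearing cells had been depleted. Macrophage markers summed to 6800 and 5974 in the 2 controls against 7608 and 8949 in the mutants, and neutrophil markers to 1482 and 1401 in the 2 controls against 2097 and 1656 in the mutants. Plasmacytoid dendritic cell markers summed to 3359 and 2588 in the 2 controls against 3270 and 2998 in the mutants, and most of that sum was the broadly expressed *Tcf4*. Of the 5 tested, 2 had both mutants above both controls, against the 19.6% of all genes given above. *Siglech* had 134 and 98 normalized counts in the 2 controls against 186 and 183 in the mutants, a ratio of 1.59 (log2 fold change 0.68, limma unadjusted p = 0.0286). *Bst2* had 142 and 97 in the 2 controls against 147 and 196 in the mutants. The groups overlapped for *Ccr9*, with 14 and 12 in the 2 controls against 27 and 9 in the mutants, and for *Tcf4* (log2 fold change 0.04). *Ly6c2* went the other way, with 42 and 41 in the 2 controls against 16 and 45 in the mutants (log2 fold change -0.60). The part of these cells in the values of *Jchain* and of the B cell members was not tested.

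Markers of the lung tissue itself were examined in the same way. *Acta2*, which encodes α-SMA, had 686 and 900 normalized counts in the 2 controls against 1032 and 929 in the mutants. Smooth muscle markers summed to 4533 and 5837 normalized counts in the 2 controls against 6848 and 6426 in the mutants. Alveolar type 2 markers were highest in control replicate 2, with sums of 10770 and 16406 in the 2 controls against 7675 and 9761 in the mutants. Erythroid markers were high in control replicate 1 alone, with sums of 320 and 5 in the 2 controls against 17 and 29 in the mutants. Fibroblast markers summed to 16431 to 20774 per library and endothelial markers to 8260 to 9494. The part of these differences in the results for the members was likewise not tested.

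**Figure D4:**
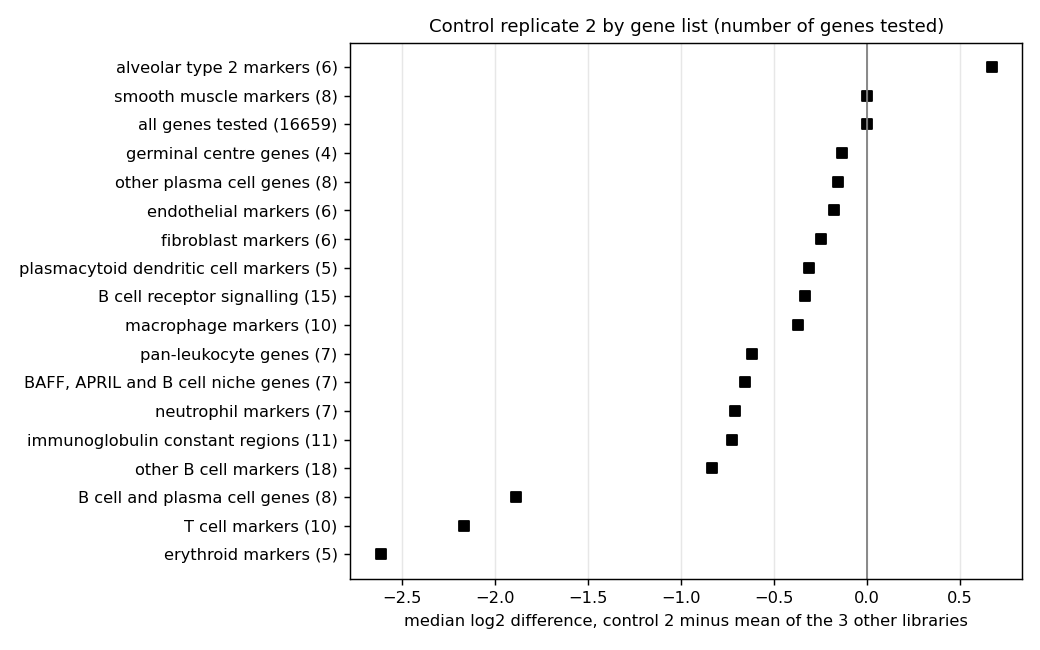
Median log2 difference between control replicate 2 and the mean of the 3 other libraries for each list of genes, with the number of genes tested in parentheses. The 8 members tested have a median of -1.89 and T cell markers of -2.17 and alveolar type 2 markers of 0.67, with all genes centred near 0.

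Among the 5 genes outside the lists whose library profile was nearest to the mean profile of the members were *Bcl11b*, *Pcdhb6*, *Cd27* and *Scml4*, by the largest distance in any of the 4 libraries on the centred log2 scale (0.07 to 0.12 for these 4). *Bcl11b*, a transcription factor of T cells, had 147 and 49 normalized counts in the 2 controls against 142 and 99 in the mutants. *Cd27*, a co-stimulatory receptor of lymphocytes, had 49 and 15 in the 2 controls against 46 and 33 in the mutants. *Pcdhb6*, a protocadherin, had 51 and 17 in the 2 controls against 48 and 33 in the mutants. This likeness rests on 4 libraries and on the low value in control replicate 2.

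**Figure D5:**
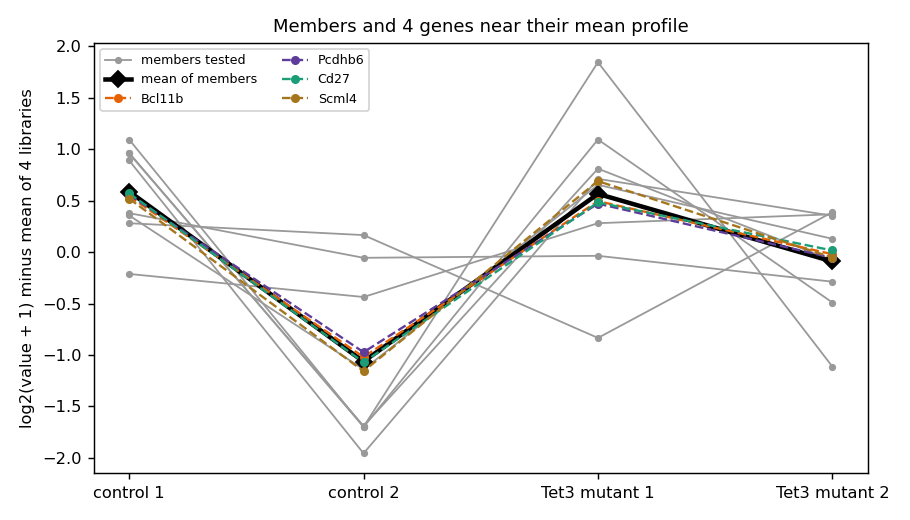
Profile over the 4 libraries, as log2(value + 1) minus the mean of the libraries, for the 8 members tested (grey), their mean (black) and 4 of the 5 nearest genes outside the lists (dashed). The mean profile is 0.59 and -1.06 in the 2 controls against 0.57 and -0.09 in the mutants.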

How the data were processed

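RNA from 2 control and 2 Tet3 mutant samples of sorted SMCs was depleted of ribosomal RNA, made into stranded libraries and sequenced single end. By the study's methods, the authors trimmed reads with Trimmomatic 0.36, aligned them with STAR 2.6.0c to mm10 (GRCm38), counted exon reads with featureCounts of Subread 1.6.0, leaving out reads on several genes or places, and scaled the counts with DESeq2. What the authors deposited is treated as a score: counts per gene after scaling, rounded to whole numbers, from which raw counts were not recovered. Groups follow the labelled genotype.

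Values were transformed to log2(value + 1) and fitted with limma 3.58.1 in R 4.3.3 (eBayes with a trend) for 16659 genes with a mean of at least 10, with Benjamini-Hochberg adjustment and a threshold of 0.05. The fit was also run on simulated counts. These had less spread between libraries than most mature B cell genes and larger changes than any member, so that run does not bear on the members. For 1 gene, an exact permutation test of 2 against 2 libraries has 0.333 as its smallest p. The limma p-values set each difference against the spread between these samples, moderated by the spread across genes. Exon lengths and overlaps came from GENCODE M21, in which 99.9% of tested genes were found, and promoters from RefSeq. Values of up to 3 were treated as not distinguished from 0 by counting error.

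The members and lists were chosen with earlier results of these data known. Named were all members and, from other lists, the 3 genes with the highest means or those with an unadjusted p under 0.05, plus 4 of the 5 genes nearest in profile; some genes are not reported here. *Cxcr5*, *Dntt*, *Ccr9* and *Ly6c2* were named for their role or after their values were seen, and genes of the leukocyte and tissue lists were mostly given as sums. Alternatives were other pseudocounts, minimum means, scalings, no trend, a replicate block and each library left out.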

Additional observations from a re-analysis of the deposited data

How the results depend on the processing

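Of 13 alternatives, 9 changed the pseudocount, minimum mean, scaling, trend or replicate block and 4 left out a library. Under the 9, each tested member kept its direction and its side of the adjusted threshold wherever it was run (a mean of at least 50 left out *Cd79a*, *Cr2* and *Tnfrsf17*), and the median of all genes stayed within 0.05 of 0 on the log2 scale under the scalings. With a library left out, log2 fold changes ranged from -0.59 to 2.06 for *Ms4a1*, -0.79 to 2.00 for *Pax5*, -0.75 to 2.21 for *Cr2*, -0.36 to 2.49 for *Cd22* and -1.06 to 0.16 for *Tnfrsf17*, so these 5 reversed, and the cause was not tested. *Cd79a*, *Cd79b* and *Jchain* kept their direction. The median over the members tested ranged from -0.52 (without control replicate 2) to 1.77 (without control replicate 1).

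Over all genes, same-numbered samples deviated together only weakly (Pearson's r = 0.13 over both pairs, across genes, which are not independent replicates). The 6 genes of mature B cells were all lower in replicate 2 of both groups, and the share of all genes that were was not computed. Nothing in the labels says that a number pairs samples. With the replicate block, 0 members and 0 genes in all passed the adjusted threshold, the median was 0.69, and *Jchain* had a limma adjusted p of 0.357. Without the trend 1 gene of the whole table passed, no member among them. A lone sample in a group was assumed to vary like the others.

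With 2 libraries a group and the spread between replicates, largest in control replicate 2 for most of these genes, the mature B cell genes give no common direction between genotypes. *Cd79a* stayed above 0 and *Cd79b* below 0 with any library left out, neither past the adjusted threshold. *Ms4a1*, *Cd22*, *Pax5* and *Cr2* reversed without control replicate 2, and the last of these, like *Pax5*, also without mutant replicate 1. Values near 3 to 13 (*Mzb1*, *Tnfrsf17*) are limited by depth.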
